A study of Mus musculus with 6 samples.

Results

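The transcripts described here encode SHP-2 (Ptpn11) and 9 other phosphatases that remove phosphate from tyrosines or from membrane lipids: Ptpn6, Ptpn1, Ptpn2, Ptpn12, Ptpn18, Ptpn22, Ptprc, Ptprj and Inpp5d. They were taken by gene symbol, and all 10 were found among the 14490 genes measured. The mRNA-seq experiment compared NK cells sorted from the spleens of WT mice (Mettl3fl/fl) with those of cKO mice (Ncr1Cre-Mettl3fl/fl), with 3 samples per genotype. Both genotypes carry the floxed Mettl3 alleles on the C57BL/6 background and differ in the Cre, which is expressed from the Ncr1 locus and therefore acts in cells that have switched on NKp46. Per the study's methods, mice were 6 to 10 weeks old. METTL3 is the enzyme that writes N6-methyladenosine (m6A) on mRNA, and the comparison asks what its loss in NK cells does to transcript levels. The Cre and the loss of METTL3 go together in these samples, so their effects cannot be told apart. Nothing in the labels says that the samples of a genotype came from separate mice, so the p-values measure the spread between these samples. These are bulk samples, in which fewer cells of a type and less RNA per cell cannot be told apart. The study reports a lower frequency of late-stage (CD11b+ CD27−) NK cells in the spleens of cKO mice. The part of such a shift in the values below was not tested.

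NK-cell activation is read out as tyrosine phosphorylation. Src-family kinases phosphorylate activating receptors and adaptors, cytokine receptors such as that of IL-15 signal through JAK kinases, and PI3K makes the lipid PIP3. Protein tyrosine phosphatases take the tyrosine phosphates off again, some to stop a signal and some, such as SHP-2 and CD45, to let it through, while SHIP-1, the product of Inpp5d, removes a phosphate from PIP3.

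In cKO NK cells 7 of the 10 transcripts differed from WT, 6 lower and 1 higher. Ptpn2, which encodes the JAK and STAT phosphatase TC-PTP, had the largest change, a fall of the mean by 19.4%. Ptprc (CD45), Ptpn1 (PTP1B), Ptpn11 (SHP-2), Ptpn22 (PEP) and Ptpn18 fell by 7.49% to 11.2%, and Inpp5d (SHIP-1) rose by 10.2%. Ptpn6 (SHP-1), Ptpn12 (PTP-PEST) and Ptprj (CD148) did not pass the test. A gene was called when its limma p-value, adjusted over all 14490 genes by the Benjamini-Hochberg method, was under 0.05. By that criterion 36.6% of all genes were called, 18.8% as lower and 17.8% as higher in cKO. The genotypes did not overlap for 8 of the 10 members, against 45.7% of all genes. The changes were small: the median size of the log2 fold change was 0.12 over the members and 0.17 over all genes, and the median with its sign was −0.12 and 0.0014.

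The samples went with their labels. Mettl3 had 1303, 1258 and 1192 normalized counts in the 3 WT samples and 297, 299 and 405 in the 3 cKO samples, a log2 fold change (log2FC) of −1.92 (standard error, SE, 0.0986, adjusted p = 2.32e-14 by limma). All 10 NK-cell markers were present at mean normalized counts of 19656 to 257856. Their sum lay between 802103 and 829292 in WT and between 737682 and 779263 in cKO, and 7 were called, 6 lower and 1 higher. All 10 B-cell markers were present at means of 43.5 to 674, and none was at 0. Their sum lay between 1645 and 1684 in WT and between 2150 and 2201 in cKO, and 8 were called, all higher. Without cKO sample 1, or without cKO sample 3, 4 B-cell markers were called. Summed T-cell markers (9 of 10 tested) ran from 5081 to 5393 in WT and from 5035 to 5302 in cKO, and 3 were called, 1 higher and 2 lower. Summed myeloid markers (7 of 10 tested) ran from 7703 to 8321 in WT and from 7697 to 8459 in cKO. Of these 4 were called, 3 higher and 1 lower. Summed erythroid and platelet markers (5 of 8 tested) ran from 811 to 870 and from 684 to 832, and 0 were called. By the same test 36.6% of all genes were called. B cells also express Ptprc, Ptpn6, Ptpn22 and Inpp5d. The part of the B-cell transcripts in the values below was not tested. Reads on the listed genes, as inferred from the steps between the deposited values, numbered 55965515 to 71464042 per sample.

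The METTL3 complex methylates adenosines within a short consensus whose most common core is GGACT. Stretches of 29 bases around that core are shown, with the core in capitals, for SHP-2, the transcript at the centre of the study, and for the 3 members whose reference transcript holds a match within 100 bases of the stop codon, a stretch in which m6A is often found. They are read 5′ to 3′ from the GRCm38 transcripts of GENCODE M21.
Ptpn11, chr5:121134043-121134071, minus strand, 111 bases after the stop codon: ccggcactggctGGACTgcctcttgagaa
Ptpn12, chr5:20987328-20987356, minus strand, 91 bases after the stop codon: tctttaaatgtgGGACTgatagcagtgta
Ptpn18, chr1:34473676-34473704, plus strand, 44 bases after the stop codon: tcggtggtggctGGACTcctggaaccacc
Inpp5d, chr1:87718259-87719323, plus strand, across an exon junction in the coding sequence, 14 bases before the stop codon: ggctgcttggcaGGACTgccatgcagtga
The core was searched on the transcribed strand of the longest coding transcript of each gene. The Ptpn11 transcript holds 7 matches, or 1.25 per kb. Over all 11806 coding transcripts searched, the median was 1.05 per kb with quartiles of 0.636 and 1.52. Ptpn18 had the most per length among the members, with 5 matches and 3.21 per kb, followed by Ptpn12 with 6 matches and 1.83 per kb. Inpp5d had the fewest per length, with 2 matches and 0.405 per kb, beside Ptpn6 with 1 match and 0.433 per kb. A window of 100 bases on each side of the stop codon held the core in 25.0% of 11274 transcripts, and in 3 of the 10 members. Of those 3, Ptpn18 was lower in cKO, Inpp5d was higher and Ptpn12 did not pass the test. A match describes the sequence only, and m6A itself was not analysed here.

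Divided by the length of the reference transcript, the levels of the 10 members differed by more than 100-fold between the ends of their order. Ptprc stood first with a mean of 37479 normalized counts per kb over the 6 samples, above 99.0% of 14105 genes with a length. CD45 is a major surface protein of all white blood cells. Ptpn22 came next with 8270 per kb. Inpp5d, Ptpn1 and Ptpn6 followed with means of 4029, 3709 and 3359 per kb over both genotypes. Within genotypes, Inpp5d and Ptpn1 averaged 3834 and 3879 per kb in WT, where their samples overlapped, and 4225 and 3540 per kb in cKO, where Inpp5d was above Ptpn1 in all 3 samples. Ptpn1 was above Ptpn6 in each of the 6 samples. Ptpn2 and Ptpn12 changed places: Ptpn2 was the higher in all 3 WT samples (means of 2703 and 2268 per kb) and the lower in all 3 cKO samples (2179 and 2343 per kb). Ptpn11 (1303 per kb) and Ptpn18 (1279 per kb) overlapped in both genotypes, and both lay above the median of all genes, 335 per kb. SHP-2 was therefore among the less abundant members, above 76.9% of all genes, while the related SHP-1 was above 90.7%. Ptprj alone lay below the median, at 199.8 per kb. Reads spread over several transcript forms of a gene are counted here against 1 length, so these levels are approximate.

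**Figure D1:**
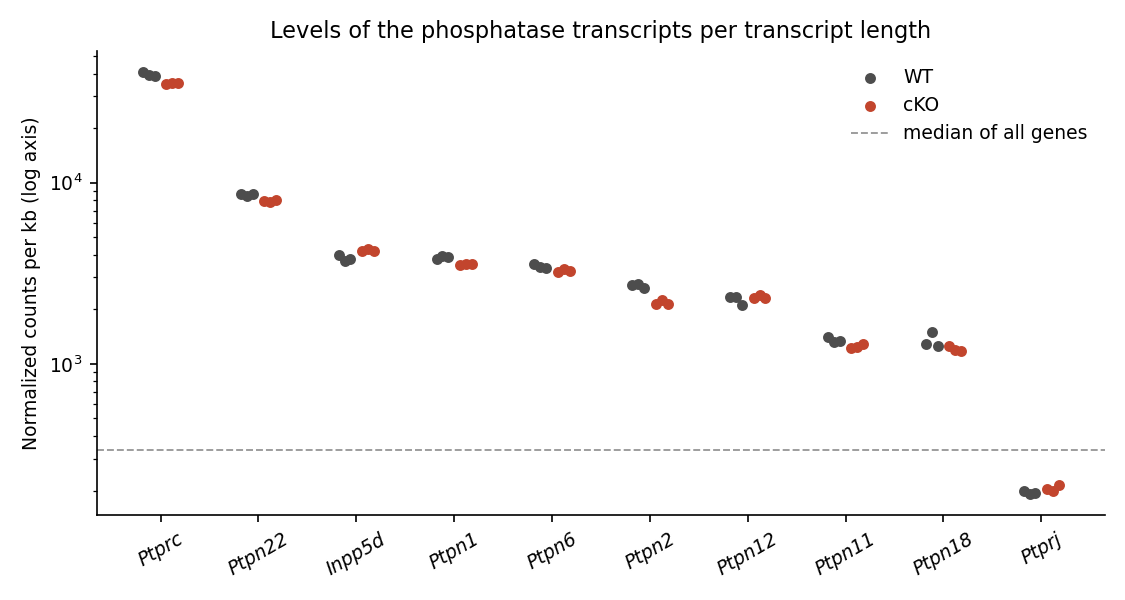
Normalized counts per kb of the longest coding transcript (log axis) for the 10 phosphatase transcripts, 1 point per sample, WT and cKO side by side, with the median of all genes as a dashed line. Ptprc stands far above the rest at a mean of 37479 per kb, and Ptprj is the one member below the median of 335 per kb.

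SHP-2 and SHP-1 are the phosphatases with paired SH2 domains, which dock them on phosphorylated tyrosines of receptors and adaptors. SHP-2 carries signals of growth factors and cytokines toward Ras and ERK, and SHP-1 is recruited by inhibitory receptors of NK cells and damps activation. Ptpn11, on chromosome 5 from 121130533 to 121191397 (minus strand), gave 7869, 7434 and 7484 normalized counts in the 3 WT samples and 6838, 6913 and 7243 in the 3 cKO samples. The highest cKO sample, at 7243, was below the lowest WT sample, at 7434. WT averaged 7596 ± 238 (SD, n = 3) and cKO 6998 ± 215 (SD, n = 3). The log2FC was −0.12 (SE 0.0366, 95% confidence interval, CI, −0.19 to −0.04, adjusted p = 0.0122 by limma). The call was lost with the samples scaled to equal totals (−0.069, adjusted p = 0.145 by limma), without WT sample 1 (adjusted p = 0.0769 by limma) and without cKO sample 1 (adjusted p = 0.0779 by limma). Permuting the genotype labels exactly, in all 20 ways, gave a two-sided p of 0.1, the smallest that 3 samples against 3 allow. This value is the same for each of the 8 members whose genotypes do not overlap. The study describes the transcript level of SHP-2 as unaltered and its protein as reduced in cKO NK cells. Unlike here, its calls on transcripts also required a minimum fold change.

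Ptpn6, on chromosome 6 from 124720707 to 124738714 (minus strand), gave 8207, 7928 and 7777 normalized counts in WT and 7406, 7663 and 7533 in cKO. Here too the genotypes did not overlap, with 7777 as the lowest WT and 7663 as the highest cKO value. The means were 7971 ± 218 (SD, n = 3) and 7534 ± 129 (SD, n = 3). The log2FC of −0.08 (SE 0.0350) did not pass the test (adjusted p = 0.0723 by limma), and after a GC and length correction it did (−0.11, adjusted p = 0.0131 by limma). The ratio of Ptpn11 to Ptpn6 within a sample does not depend on the size factor. It was 0.959, 0.938 and 0.962 in WT and 0.923, 0.902 and 0.962 in cKO. The genotypes overlapped, with a log2 difference of −0.04 (two-sided exact permutation p = 0.3).

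The 3 genes whose log2 values followed those of Ptpn11 most closely over the 6 samples, among 11751 genes with a mean of at least 1 CPM, were Wdr83, Ppm1b and Prpf8, with Pearson r of 0.996, 0.993 and 0.991. Wdr83 encodes a WD-repeat protein, Ppm1b a serine and threonine phosphatase and Prpf8 a core protein of the spliceosome. The 6 points of each comparison share their genotype and their library, and the values are a description of likeness over these samples.

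Ptpn1 and Ptpn2 encode PTP1B and TC-PTP, close relatives that dephosphorylate the insulin receptor and JAK kinases. Both fell, by different amounts. Ptpn1, on chromosome 2 from 167932057 to 167979385 (plus strand), gave 16027, 16511 and 16485 normalized counts in WT and 14791, 15049 and 14902 in cKO. The gap between the genotypes, from 15049 to 16027, was wider than the range within either of them. The means were 16341 ± 272 (SD, n = 3) and 14914 ± 129 (SD, n = 3), with a log2FC of −0.13 (SE 0.0307, adjusted p = 0.00123 by limma).

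Ptpn2 had 7256, 7387 and 6983 normalized counts in WT and 5735, 5983 and 5716 in cKO. The lowest WT sample exceeded the highest cKO sample by more than the range within either genotype. The means were 7209 ± 206 (SD, n = 3) and 5812 ± 149 (SD, n = 3). The log2FC was −0.31 (SE 0.0368, 95% CI −0.39 to −0.24, adjusted p = 1.78e-07 by limma). Over all alternatives tried, including each sample left out, it lay between −0.33 and −0.26 and was called each time.

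Since Ptpn2 fell further than Ptpn1, the ratio of Ptpn1 to Ptpn2 was 2.21, 2.24 and 2.36 in WT and 2.58, 2.52 and 2.61 in cKO. The genotypes did not overlap, and the log2 difference was 0.18 (two-sided exact permutation p = 0.1, the smallest possible).

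**Figure D2:**
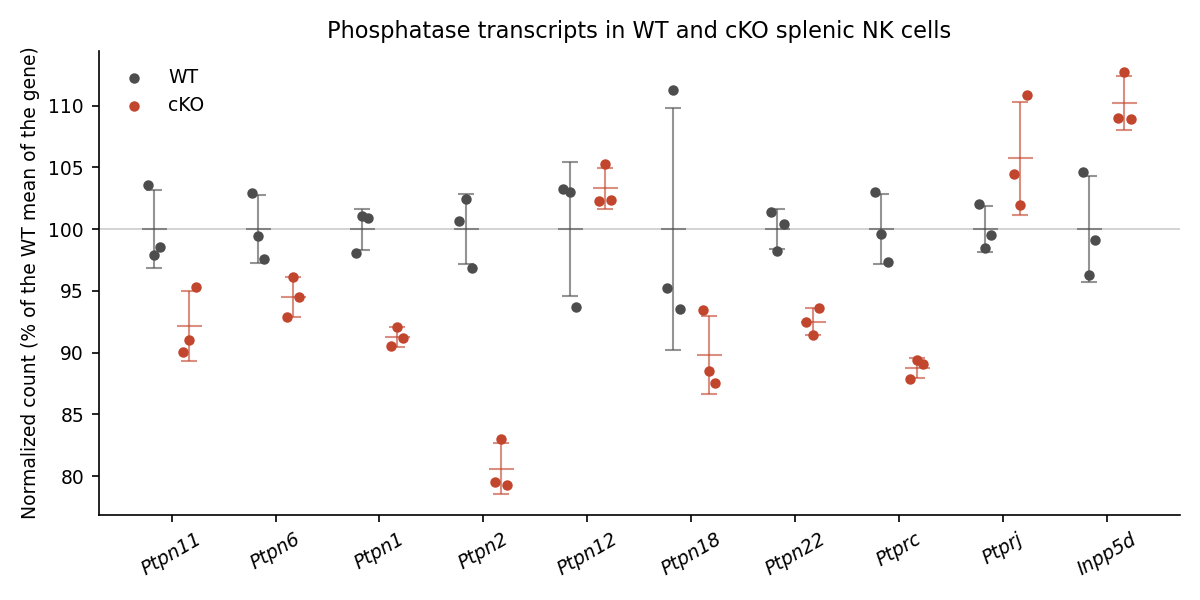
Normalized counts of the 10 phosphatase transcripts in each sample, as a percentage of the gene's WT mean, with 1 point per sample and the genotypes side by side. The cKO points of Ptpn2 lie furthest below WT, with a mean 19.4% lower, those of Inpp5d lie above WT, and the genotypes overlap for Ptpn12 and Ptprj.

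Ptpn12, Ptpn18 and Ptpn22 form the group of phosphatases with proline-rich PEST tails. PTP-PEST, from Ptpn12, acts on the scaffold proteins p130Cas and paxillin, and PEP, from Ptpn22, works with the kinase Csk to damp Src-family kinases and ZAP-70. The 3 transcripts did not move alike. Ptpn22, on chromosome 3 from 103859795 to 103912247 (plus strand), gave 23890, 23140 and 23669 normalized counts in WT and 21790, 21548 and 22069 in cKO. All cKO samples were below all WT samples. The means were 23566 ± 386 (SD, n = 3) and 21802 ± 261 (SD, n = 3), a log2FC of −0.11 (SE 0.0298, adjusted p = 0.00391 by limma). With equal totals it was −0.063 and no longer called (adjusted p = 0.0896 by limma). The listed genes Gm15472 and Gm43065 overlap Ptpn22 on the same strand and Gm15602 on the opposite strand, and how shared reads were counted is not given in the sources used here.

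Ptpn18, on chromosome 1 from 34459762 to 34475733 (plus strand), gave 2000, 2337 and 1963 normalized counts in WT and 1962, 1858 and 1839 in cKO. WT sample 2 stood above all others, and WT sample 3 and cKO sample 1 differed by about 1 count. The log2FC was −0.15 (SE 0.0587, adjusted p = 0.0455 by limma). This was the weakest of the 7 calls: without WT sample 2 the change was −0.072 (adjusted p = 0.363 by limma), without cKO sample 2 the adjusted p was 0.107 and without cKO sample 3 it was 0.126. It was also lost with equal totals (adjusted p = 0.190 by limma) and with limma-voom (adjusted p = 0.0577). The listed gene Gm28417 overlaps Ptpn18 on the opposite strand, and since no strand setting of the counting is given in the sources used here, reads of the pair may not be told apart.

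Ptpn12, on chromosome 5 from 20986645 to 21055911 (minus strand), gave 7680, 7664 and 6972 normalized counts in WT and 7608, 7829 and 7615 in cKO. WT sample 3 was the lowest of the 6, and the genotypes overlapped. The log2FC of 0.05 (95% CI −0.03 to 0.13) was not called (adjusted p = 0.358 by limma), and with equal totals it was (0.098, adjusted p = 0.0389 by limma). Set against Ptpn22 within each sample, the ratio of Ptpn12 to Ptpn22 was 0.321, 0.331 and 0.295 in WT and 0.349, 0.363 and 0.345 in cKO. The genotypes did not overlap, with a log2 difference of 0.16 (two-sided exact permutation p = 0.1, the smallest possible).

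Ptprc and Ptprj encode the receptor-like phosphatases CD45 and CD148, both of which can remove the inhibitory phosphate from Src-family kinases. Ptprc, on chromosome 1 from 138062861 to 138175708 (minus strand), gave 207567, 200656 and 196181 normalized counts in WT and 177056, 180059 and 179483 in cKO. The 3 cKO samples lay close together and below all WT samples. The means were 201468 ± 5736 (SD, n = 3) and 178866 ± 1594 (SD, n = 3). The log2FC was −0.17 (SE 0.0303, 95% CI −0.23 to −0.11, adjusted p = 5.86e-05 by limma), and it was called under every alternative. A130071D04Rik, a listed gene on the same strand, lies within Ptprc, and the counting of shared reads is not given in the sources used here. Ptprj, on chromosome 2 from 90429754 to 90580647 (minus strand), gave 1513, 1460 and 1476 normalized counts in WT and 1548, 1512 and 1643 in cKO. The genotypes overlapped at WT sample 1 and cKO sample 2, which differed by about 1 count. Its log2FC was 0.08 (95% CI −0.03 to 0.19) and was not called (adjusted p = 0.285 by limma).

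Csk encodes the kinase that adds the inhibitory phosphate which CD45 takes off. It had 18864, 18163 and 18015 normalized counts in WT and 20950, 21074 and 20109 in cKO, and rose by 0.17 on the log2 scale (adjusted p = 7.65e-05 by limma). The ratio of Ptprc to Csk was 11.0, 11.0 and 10.9 in WT and 8.45, 8.54 and 8.93 in cKO. The genotypes were far apart relative to their spread, with a log2 difference of −0.35 (two-sided exact permutation p = 0.1, the smallest possible).

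Inpp5d encodes SHIP-1, a lipid phosphatase with an SH2 domain that is recruited to receptors and turns over PIP3. On chromosome 1 from 87620312 to 87720507 (plus strand), it was the member that rose. It had 19803, 18218 and 18759 normalized counts in WT and 20626, 21335 and 20614 in cKO, so all cKO samples were above all WT samples. The means were 18927 ± 806 (SD, n = 3) and 20859 ± 413 (SD, n = 3), with a log2FC of 0.14 (SE 0.0331, 95% CI 0.07 to 0.21, adjusted p = 0.00132 by limma). It was called under every alternative.

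**Figure D3:**
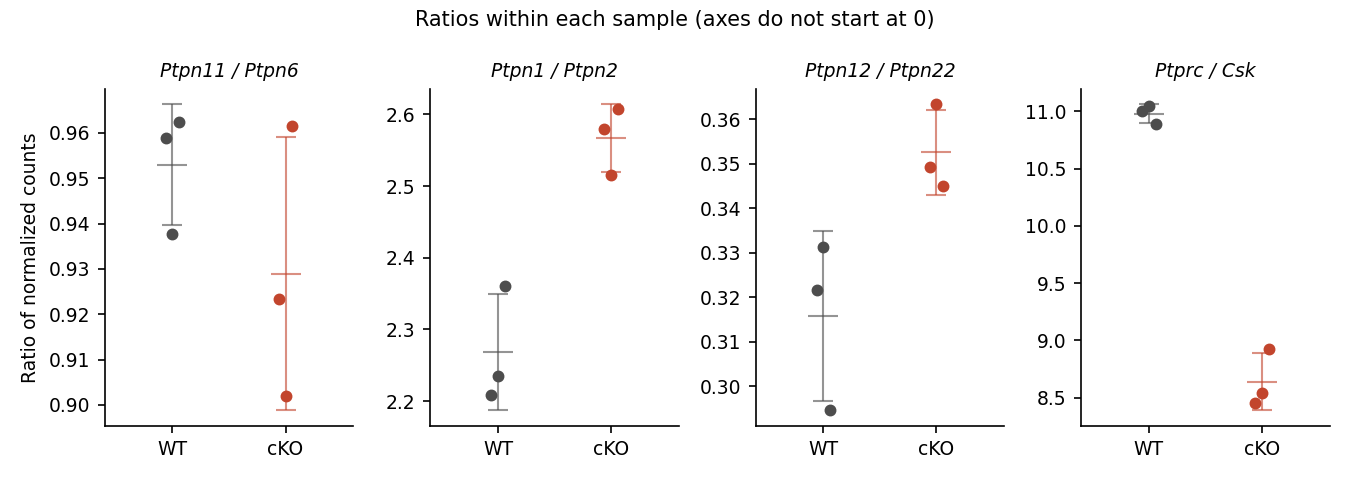
Ratio of the normalized counts of 2 transcripts within each sample for 4 pairs, 1 point per sample with the mean and SD of each genotype (vertical axes do not start at 0). The genotypes are apart for Ptpn1 to Ptpn2, Ptpn12 to Ptpn22 and Ptprc to Csk, and overlap for Ptpn11 to Ptpn6.

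Scaling matters for changes of this size. The totals of the deposited values were 66099619 to 66657947 in WT and 63610357 to 64941538 in cKO, and making them equal moved the median log2FC over the whole table from 0.0014 to 0.051. With equal totals 38.0% of all genes were called, and 5 members were, 3 lower (Ptpn1, Ptpn2 and Ptprc) and 2 higher (Inpp5d and Ptpn12). With the GC and length correction 8 members were called, 7 lower and 1 higher. Ptpn1, Ptpn2, Ptprc and Inpp5d were called under the main setting and every alternative.

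**Figure D4:**
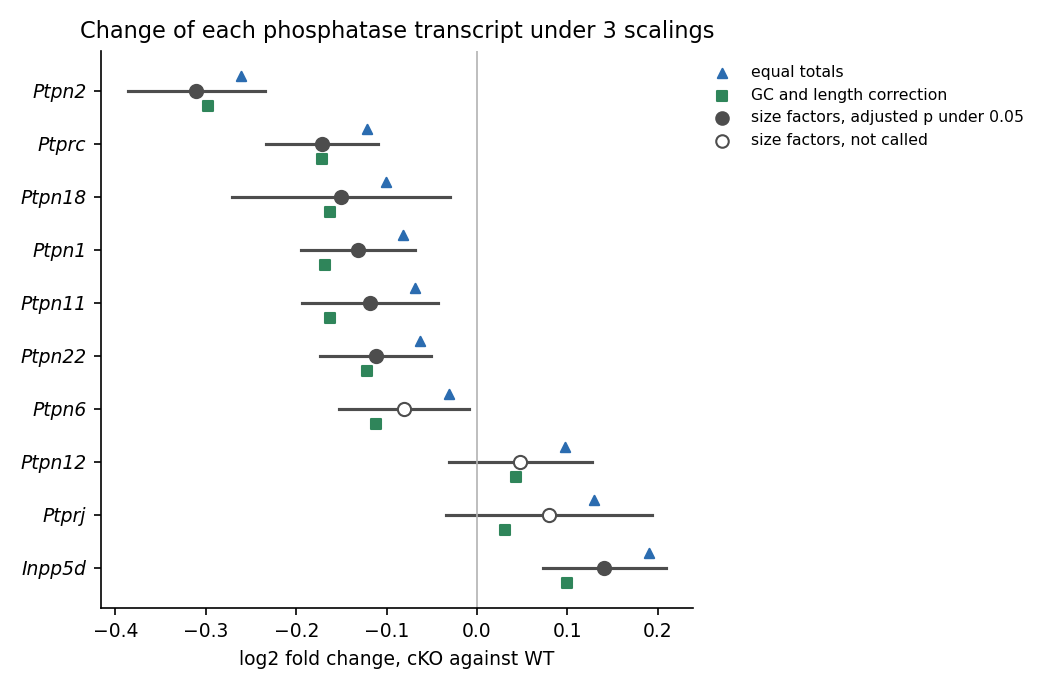
log2FC (cKO against WT) of each phosphatase transcript, with circles and 95% CIs for the deposited scaling by size factors, triangles for equal totals and squares for the GC and length correction. Filled circles passed the test. Equal totals moves each transcript up by about 0.05, and none of the 10 changes sign.

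Among the other classical protein tyrosine phosphatases, 18 of 29 were listed. Of these 7 were called, 5 lower and 2 higher, against 36.6% of all genes. The genotypes did not overlap for 8 of the 18, against 45.7% of all genes, so both counts were near the shares over all genes. The median log2 fold change was −0.08. Ptprh, a receptor-like phosphatase best known in epithelium, had 128, 130 and 144 normalized counts in WT and 372, 316 and 326 in cKO. It rose by 1.33 on the log2 scale (SE 0.140, adjusted p = 2.44e-08 by limma), more than any member. Ptpn3 rose by 0.47 from a low level, with a mean of 309 in WT and 427 in cKO (adjusted p = 0.00320 by limma). Ptpn7, which encodes the ERK and p38 phosphatase HePTP of blood cells, had 15665, 15267 and 15257 normalized counts in WT and 12267, 12182 and 11969 in cKO. Its log2FC of −0.34 (adjusted p = 1.77e-09 by limma) was close in size to that of Ptpn2. Ptpre fell by 0.20 (adjusted p = 0.000126 by limma). Ptpn14 had a log2FC of −0.44 (adjusted p = 0.0127 by limma), which was not called without cKO sample 2 (adjusted p = 0.0950 by limma).

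Of the other phosphoinositide phosphatases 22 of 25 were listed. Against 36.6% of all genes called, 18.8% as lower, 7 of the 22 were called, all lower. With equal totals 6 were lower and 1 was higher. The genotypes did not overlap for 9 of the 22, against 45.7% of all genes, and the median log2 fold change was −0.12. Synj2, a synaptojanin, had a mean of 473 normalized counts in WT and 349 in cKO, a log2FC of −0.44 (adjusted p = 0.00215 by limma). Mtm1, which encodes the lipid phosphatase myotubularin, had 1078, 1118 and 1099 normalized counts in WT and 844, 887 and 862 in cKO. Its log2FC was −0.35 (adjusted p = 0.000134 by limma). Inpp5a had a log2FC of −0.31 (adjusted p = 0.0150 by limma), and leaving out WT sample 2, WT sample 3 or cKO sample 2 ended the call (adjusted p up to 0.0643 by limma). Inpp5d rose in the same samples.

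The list of adaptors and kinases around these phosphatases holds 32 genes, of which 30 were listed. Of these 17 were called, 9 higher and 8 lower, against 36.6% of all genes. The genotypes did not overlap for 18 of the 30, against 45.7% of all genes, and the median log2 fold change was 0.01. With equal totals 13 were higher and 7 lower, and with the GC and length correction 8 were higher and 11 lower. Gab2, the docking adaptor that binds SHP-2, had 2346, 2247 and 2263 normalized counts in WT and 1495, 1563 and 1550 in cKO, a log2FC of −0.57 (SE 0.0506, adjusted p = 1e-09 by limma). It fell by far more than Ptpn11 itself. Bcar1, which encodes the PTP-PEST substrate p130Cas, had a mean of 448 in WT and 290 in cKO (log2FC −0.63, adjusted p = 8.26e-05 by limma). Src was low, with means of 318 and 166 (log2FC −0.93, adjusted p = 4.68e-06 by limma).

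Irs2, an adaptor of insulin and cytokine receptors, rose from 10990, 10689 and 10892 normalized counts in WT to 14664, 14840 and 15279 in cKO (log2FC 0.46, adjusted p = 1.06e-11 by limma). The Src-family kinase gene Yes1 rose from a mean of 119 to 207 (log2FC 0.79, adjusted p = 0.000383 by limma). Dok3, an adaptor that recruits inhibitors such as SHIP-1, had means of 105 and 145 (log2FC 0.47, adjusted p = 0.0421 by limma), and the call was lost after the GC and length correction (adjusted p = 0.0539 by limma) and in 5 of the 6 fits that leave out a sample. Ptprcap, whose product binds CD45, was picked out after its values were seen. It had 4581, 5192 and 4676 normalized counts in WT and 6339, 6438 and 6119 in cKO and rose by 0.39 (adjusted p = 5.22e-08 by limma), against the fall of Ptprc.

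**Figure D5:**
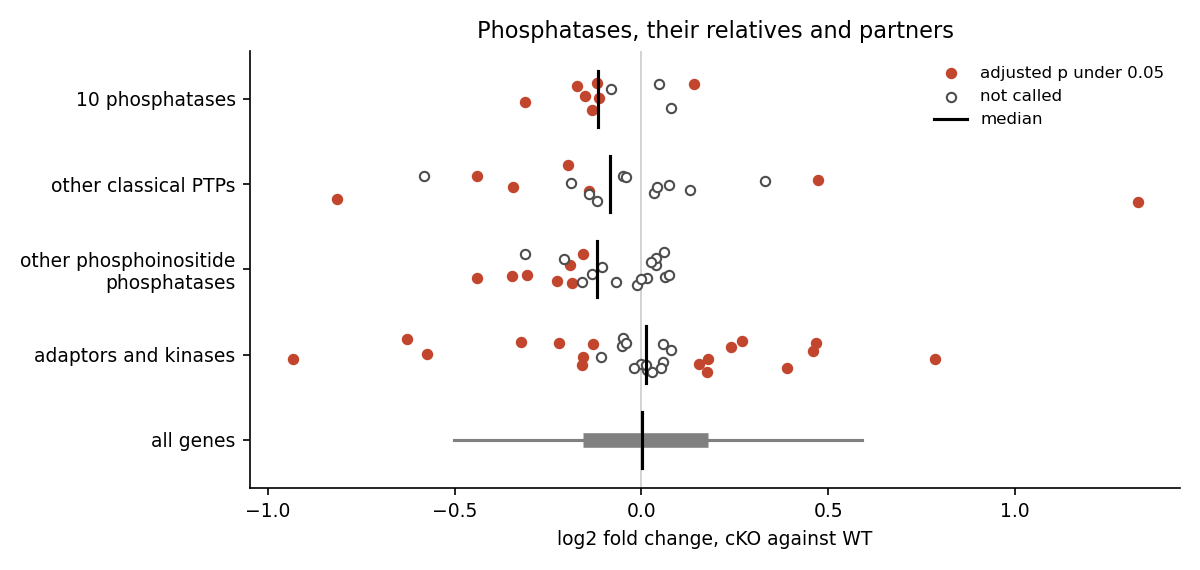
log2FC (cKO against WT) of the 10 phosphatases, of their relatives and of adaptors and kinases, 1 point per gene, filled where the adjusted p was under 0.05, with list medians as black lines. For all genes the thick bar spans the middle 50% of values and the thin line the middle 90%. The 10 phosphatases lie between −0.31 and 0.14, inside the range of the other lists, whose outermost points are Src at −0.93 and Ptprh at 1.33.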

How the data were processed

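Per the labels, the authors aligned reads to GRCm38 with HISAT2 2.0.5, counted them per gene with featureCounts 1.5.0-p3 and used DESeq2 1.16.1. The study's methods name other versions of HISAT2 and DESeq2. The deposited values are a signal, the counts of a gene divided by the sample's size factor. The table's own comparison columns (fold change, p-value, mean) were not used. Values were taken as log2(value + 1). A gene needed a value of 1 or more in 3 or more samples, which all genes had. The genotypes were compared by two-sided tests in limma 3.58.1 (R 4.3.3) with trend. p-values were adjusted by Benjamini-Hochberg over every listed gene. The steps were tested on data simulated with the same dispersion for every gene. There 99 of 100 log2 changes of size 1 were called, and 63 of 100 of size 0.3. Changes smaller than 0.3, such as those of most members, were not simulated. Every value was a whole multiple, within 0.05, of 1 step per sample, which was inferred from the values and taken as the worth of 1 read. Intervals are at the 95% level.

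Members and lists were chosen with earlier results of these data known. Named are the members, Mettl3, Csk, the 3 genes most like Ptpn11, and from each of 3 lists up to 3 rises and 3 falls in log2 fold change, the largest among called genes whose genotypes do not overlap and whose mean reaches 1 CPM. Ptprcap is outside this rule. Lengths, positions and sequences came from the longest coding transcript in GENCODE M21. As alternatives, 0.1 was added in place of 1, the filter was dropped or raised to 1 CPM in 3 samples, and totals were made equal. Others were the replicate number as a block, a GC and length correction (splines of 5 degrees of freedom, 14105 genes), that correction with the block, and each sample left out. limma-voom, run on the inferred reads, was added after the data were seen. The result of 1 planned ratio is not reported here.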

Additional observations from a re-analysis of the deposited data

How the results depend on the processing

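Under equal totals the log2 fold change of Ptpn11 was −0.069 (limma adjusted p = 0.145), and with each sample left out it lay between −0.14 and −0.093. After the GC and length correction the log2 difference was 0.13 for Ptpn1 to Ptpn2 and −0.31 for Ptprc to Csk. With each sample left out, 4 to 9 B-cell, 1 to 3 T-cell, 2 to 5 myeloid and 0 to 1 erythroid and platelet markers were called. Of the last list 0 were called by limma and by limma-voom (1 at an unadjusted p under 0.05), and 1 with the filter on CPM, where fewer genes are tested. The other causes were not tested. Members called numbered 6 to 7 with each sample left out, and 5 to 8 under the other alternatives. Of all genes 5307 were called (48.5% higher), 5503 with equal totals (63.4% higher), 5279 with the GC and length correction (42.7% higher) and 4417 to 4922 with each sample left out.

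Deviations of same-numbered samples correlated at −0.04, 0.06 and 0.04, and 2 of 3 numbers correlated best with their own. With 3 samples per genotype these values cannot tell whether the replicate numbers pair the samples. With the replicate number as a block 7 members and 5543 of all genes were called. The planned edgeR and DESeq2 fits were not run, since the deposited values are normalized and the reads behind them are inferred, not given. The limma-voom fit rests on the same inferred reads and shares that limit. With 3 samples per genotype the spread of a single gene is poorly known.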
